A study of Mus musculus with 12 samples.

Results

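The Zfp genes of the mouse carry the prefix that marks them as zinc finger proteins, and most encode DNA-binding transcription factors. They were followed here in the neonatal cerebellum after loss of Atr, the kinase that responds to stalled replication forks. The members are the genes whose symbol in the authors' deposited table of the BaxBak comparison is Zfp followed by a digit, with Zfp750 and Zfp106 left out and with no second symbol in the visible annotation text. This gave 112 genes with 230 probe sets, of 7899 named genes with 30895 probe sets. The symbol search had found 116 genes with 243 probe sets. Zfp750 (5 probe sets) and Zfp106 (6 probe sets) were left out by name, and Zfp64 and Zfp956 (1 probe set each) because of a second symbol. All 112 symbols were matched to RefSeq genes, 1 of them (Zfp191) through a synonym, and 110 of these are protein-coding. Zfp419 and Zfp783 are listed there as long non-coding RNAs.

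Cerebella of C57BL/6 mice at postnatal day 3 were compared in 4 genotype groups of 3 samples. All animals carried Math1-Cre, a recombinase driven in the granule cell lineage, so that floxed genes are deleted in that lineage while whole-cerebellum RNA also holds that of all other cells. Atr BaxBak mutants combined Math1-Cre and Atr-loxP/loxP with Bax-loxP/loxP and Bak--/-, and BaxBak controls had Math1-Cre with Bax-loxP/loxP and Bak--/-, so that both groups lacked Bak throughout and Bax in the lineage, a pair of genes needed for mitochondrial apoptosis. Atr p53 mutants combined Math1-Cre and Atr-loxP/loxP with p53-loxP/loxP, and p53 controls had Math1-Cre with p53-loxP/loxP. The comparisons ask what loss of Atr does to these transcripts when cells cannot die through mitochondria and when p53 is deleted. Levels are log2 signals of exon and junction probe sets, averaged per gene, and a difference is the mutant mean minus the control mean on that scale. The number of arrays, 3 per group, limits the precision. The labels do not tell whether samples of one group are from different litters, so a p-value here reflects the spread among these samples alone.

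Zinc finger proteins fold short loops around a zinc ion, held by cysteines and histidines, and strings of such fingers read DNA or bind RNA. Many add a KRAB domain, and these form the largest class of mammalian transcription factors. Through the KRAB domain they recruit the co-repressor Trim28 and the histone methyltransferase Setdb1, which silence retroelements and imprinted regions. Others with the same prefix act in the p53 response, in mitosis, in mRNA decay or in neural development, so the prefix names a fold and not a pathway.

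A probe set has a name here only if it passed the authors' BaxBak test. In the authors' deposited table the step-up p-values of the 230 member probe sets in that comparison ran from 0.00219 to 0.0499, under its limit of 0.05, and probe sets beyond that limit are unnamed here. Differences between Atr BaxBak mutants and BaxBak controls are therefore given as a description. The p53 comparison uses 6 samples that took no part in the naming, and its tests were run on those. The deletion itself was not followed for Atr, Bax or Bak1, none of which had a named probe set. Trp53, with 6 named probe sets, stood at 9.68 to 9.78 in Atr BaxBak mutants and 9.0 to 9.16 in BaxBak controls. Its level was 8.77 to 8.79 in Atr p53 mutants and 8.60 to 8.79 in p53 controls.

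Cell type markers are given as a description, since a marker had a name only if it passed the BaxBak test. Markers that missed it are not counted. Past the threshold in that comparison, 58.5% of all named genes were lower and 39.7% higher. Markers of granule cell precursors (16 of 18 listed were named) averaged 9.15 to 9.27 in Atr BaxBak mutants and 9.80 to 9.87 in BaxBak controls. Their averages were 9.31 to 9.61 in Atr p53 mutants and 9.65 to 9.80 in p53 controls. Of the 16 precursor markers, 15 were lower and 1, Gli1, was higher in the Atr BaxBak mutants, and none passed the test in the p53 comparison. Markers of other cell types stood higher in Atr BaxBak mutants, with median differences of 0.71 for Purkinje cells (6 of 12 named), 0.69 for GABAergic interneurons (9 of 9), 0.91 for astrocytes (7 of 12), 0.76 for the oligodendrocyte lineage (8 of 10), 0.94 for endothelium and pericytes (2 of 10) and 0.42 for microglia (5 of 10). Exceptions in these lists were Pdgfra of the oligodendrocyte lineage, at -0.72, and Mrc1 of the microglia list, at -0.63. In the p53 comparison these medians lay between -0.14 and 0.00. Markers of meninges and choroid plexus (3 of 9 named) had a median BaxBak difference of -0.82, with Bgn at 0.95. Those of postmitotic granule neurons (5 of 15) were split, 3 lower and 2 higher (Cntn1 at 0.95 and Unc5c at 1.32), with a median of -0.54. Fewer cells of a type and less RNA per cell cannot be told apart in these samples, and the part of cell type make-up in the Zfp differences was not tested.

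Negative control probe sets averaged 4.43 in Atr BaxBak mutants and 4.11 in BaxBak controls, against 4.30 in Atr p53 mutants and 4.23 in p53 controls. Sample labels carry a bracketed prefix whose meaning they do not give. The 3 Atr BaxBak mutants share a prefix that no other group holds, so prefix and genotype cannot be told apart there. The 3 Atr p53 mutants share theirs with p53 control 1, while p53 controls 2 and 3 share another. Some probe sets hold identical values in all samples, so that they are a single measurement. Zfp108, Zfp111 and Zfp114 share a junction in this way, and it is the only probe set of Zfp108. The 2 probe sets of Zfp33b are equal to each other, and a junction of Zfp419 and Zfp772 equals 13 further probe sets of other or unnamed genes. KRAB zinc finger genes lie in families of similar sequence, and cross-hybridisation between members was not tested.

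Most Zfp genes stood lower in Atr BaxBak mutants than in BaxBak controls, and a smaller set stood higher. The median difference was -0.43 over the 112 genes and -0.34 over all named genes, with a range from -1.48 for Zfp101 to 1.27 for Zfp61. Of the members, 80 were below 0 (71.4%), against 59.3% of all named genes. By limma, 79 members were lower and 32 higher past the threshold, where all named genes gave 58.5% lower and 39.7% higher (98.2% in all). In all 112 members the 3 mutants and 3 controls did not overlap, 80 lower and 32 higher, as in 98.5% of all named genes (58.7% lower and 39.8% higher), shares that the naming sets. The Atr BaxBak mutant mean was the lowest of the 4 groups for 71 members and the highest for 29. BaxBak controls had the highest mean for 67 members and the lowest for 28. Naming required a difference between these groups, which favours them as the extremes. No share over all named genes is given beside these counts. With negative control signal as a covariate 88 members were past the threshold. Of the genes described here, Zfp248 (0.20), Zfp280c (0.10), Zfp316 (-0.11), Zfp33b (-0.46), Zfp532 (0.06), Zfp668 (-0.21) and Zfp961 (0.25) then lost the call, with differences changed by over 1.5 times. Zfp280d, Zfp445, Zfp704, Zfp804a and Zfp809 lost the call with differences within 1.5 times of those without the covariate, while Zfp276 (0.38), Zfp579 (0.47), Zfp61 (0.67) and Zfp202 (-0.97) kept it with changed values. The p53 controls lay between the 2 BaxBak groups for 69 of the 80 lower members and for 27 of the 32 higher ones. The naming favours this as well, and the share over all named genes is not given.

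**Figure D1:**
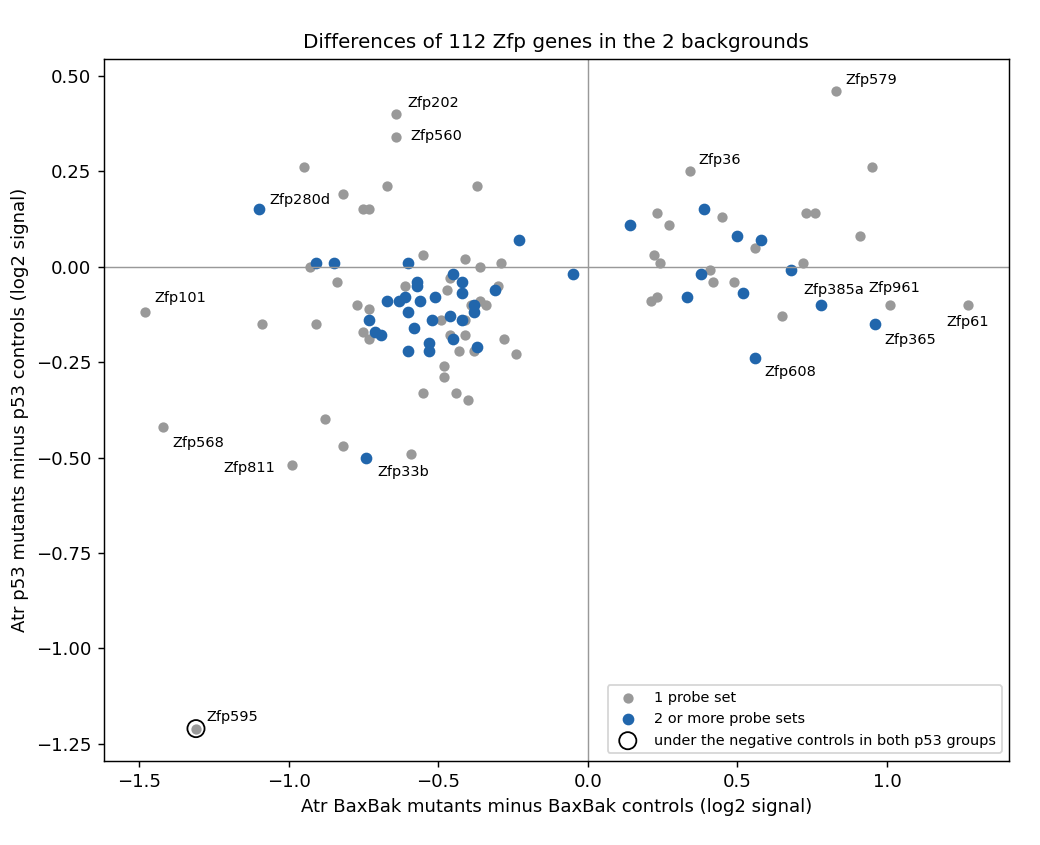
Each point is 1 of the 112 Zfp genes, with the Atr BaxBak mutant minus BaxBak control difference on the horizontal axis and the Atr p53 mutant minus p53 control difference on the vertical axis, both in log2 signal. The horizontal spread runs from -1.48 to 1.27, and all p53 differences except that of Zfp595 lie between -0.52 and 0.46. These spreads are not set against each other, since naming required a BaxBak difference.

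Among Zfp genes tied to p53, DNA damage or mitosis, 11 of 16 listed genes were named. Higher in Atr BaxBak mutants were 4 of them, Zfp365, Zfp385a, Zfp385b and Zfp280c, by 0.23 to 0.96, and 7 were lower. Of all named genes 39.7% were higher and 58.5% lower past the threshold. The median over the 11 genes was -0.24, against -0.34 for all named genes. The p53 median of the 11 was -0.13, and none of them passed the p53 test.

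Zfp365, whose human counterpart is a p53 target that protects genome stability under replication stress, had levels of 9.56, 9.53 and 9.72 in Atr BaxBak mutants and 8.55, 8.68 and 8.72 in BaxBak controls. In Atr p53 mutants it stood at 8.24, 8.61 and 8.50, against 8.41, 8.79 and 8.59 in p53 controls. The 3 Atr BaxBak mutants were above all 9 other samples, and the p53 groups overlapped. The difference was 0.96 ± 0.07 (SE), or 1.94-fold, in the BaxBak comparison and -0.15 ± 0.13 in the p53 comparison (adjusted p = 0.526, limma). All 8 of its probe sets were above 0 in the BaxBak comparison, from 0.24 to 1.35, and all 8 were below 0 in the p53 comparison, from -0.37 to -0.03.

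Zfp385a encodes Hzf, a p53 target that binds p53 and steers it towards cell cycle arrest genes. It had the most named probe sets of any member (11), and its levels were 9.67, 9.95 and 9.95 in Atr BaxBak mutants against 9.12, 9.08 and 9.01 in BaxBak controls. Atr p53 mutants had 8.85, 8.88 and 9.03, and p53 controls 8.91, 9.07 and 9.06. Again the Atr BaxBak mutants were above all other samples. The difference was 0.78 ± 0.09 in the BaxBak comparison, 1.72-fold, with all 11 probe sets between 0.59 and 1.40. In the p53 comparison it was -0.10 ± 0.08 (adjusted p = 0.526, limma).

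The paralogues of Zfp385a were higher in Atr BaxBak mutants by smaller amounts. Zfp385c (5 probe sets), which was not in the list, had 9.11, 9.40 and 9.39 in Atr BaxBak mutants and 8.48, 8.69 and 8.67 in BaxBak controls, a difference of 0.68 ± 0.10, while its p53 difference was -0.01 ± 0.11. Zfp385b (2 probe sets), whose human counterpart modulates p53 and apoptosis in B cells, had 9.04, 9.18 and 9.16 in Atr BaxBak mutants and 8.65, 8.59 and 8.65 in BaxBak controls. Its levels were 8.90, 9.06 and 8.97 in Atr p53 mutants and 8.94, 8.85 and 8.92 in p53 controls, so that both p53 groups stood between the BaxBak groups. Its differences were 0.50 ± 0.06 and 0.08 ± 0.07 (p53 adjusted p = 0.564, limma).

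Other members of this list stood lower in Atr BaxBak mutants. Zfp143, a general promoter-binding activator of cell cycle genes, had 6.73, 6.86 and 6.53 in Atr BaxBak mutants and 7.52, 7.30 and 7.75 in BaxBak controls (-0.82 ± 0.13). Its p53 groups did not overlap either, at 6.89, 6.59 and 6.88 in Atr p53 mutants and 7.12, 7.61 and 7.03 in p53 controls. That difference of -0.47 ± 0.16 did not pass the test (adjusted p = 0.181, limma). Zfp148, which encodes the p53-binding factor ZBP-89 (4 probe sets), differed by -0.46 in the BaxBak and -0.13 in the p53 comparison. Its junction, at -1.03 in the BaxBak comparison, was under the negative controls in every group except BaxBak controls. The exon probe sets of Zfp148 differed there by -0.35 to -0.20. Zfp668, whose human counterpart takes part in DNA repair, differed by -0.41 and -0.18. Zfp451, the gene of a SUMO ligase, differed by -0.38 and -0.22, and Zfp110, the gene of a partner of the p75 neurotrophin receptor, by -0.38 and -0.10. Zfp704 differed by -0.24 and -0.23, almost equally in both comparisons, and none of these p53 values passed the test.

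Zfp207, or BuGZ, brings the checkpoint protein Bub3 to kinetochores and is spliced in several forms. It was bright on 10 named probe sets, with 10.59, 10.46 and 10.48 in Atr BaxBak mutants and 10.72, 10.72 and 10.77 in BaxBak controls. Atr p53 mutants had 10.69, 10.68 and 10.68, and p53 controls 10.67, 10.55 and 10.61. The groups did not overlap in either comparison, in opposite directions, with differences of -0.23 ± 0.05 and 0.07 ± 0.06. These are averages over probe sets that differ in sign. A single junction was higher in both comparisons, by 1.05 and 0.49. The other probe sets lay between -0.09 and 0.10 in the p53 comparison. Zfp280c, with 11.06, 11.02 and 11.01 in Atr BaxBak mutants and 10.84, 10.71 and 10.87 in BaxBak controls, was higher by 0.23, and by 0.14 in Atr p53 mutants relative to p53 controls (adjusted p = 0.264, limma).

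**Figure D2:**
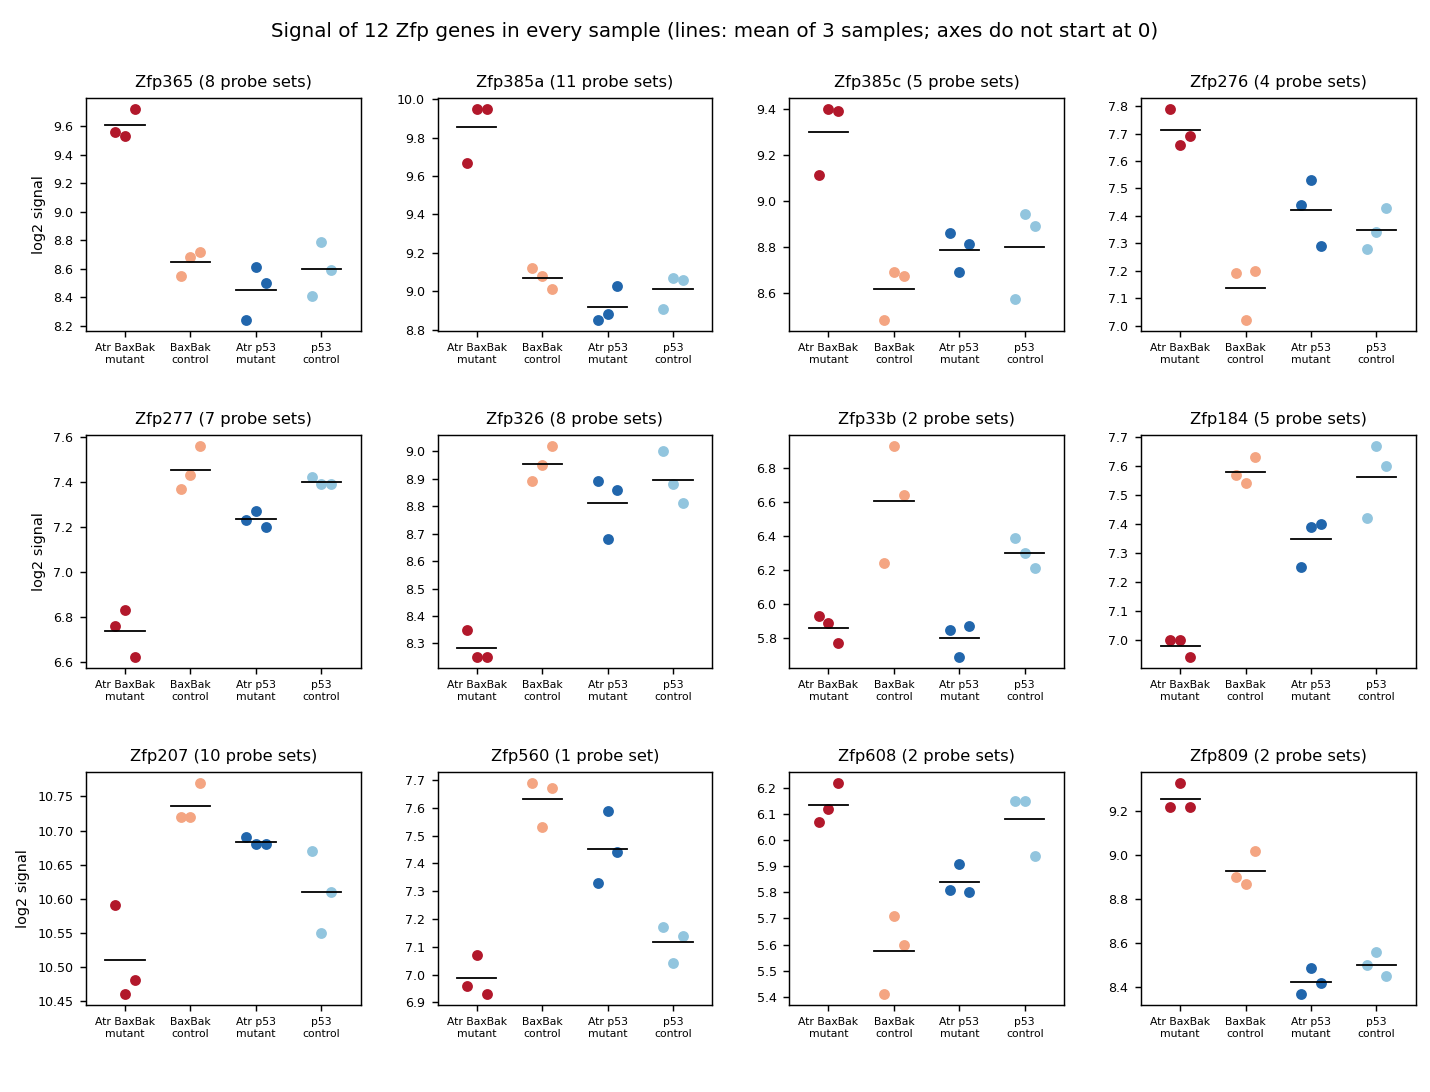
Log2 signal of 12 Zfp genes in every sample, in the order Atr BaxBak mutants, BaxBak controls, Atr p53 mutants and p53 controls, with a line at each group's mean of 3 samples and a separate vertical axis per gene that does not start at 0. The Atr BaxBak mutants stand apart upwards for Zfp365, Zfp385a, Zfp385c and Zfp276 and downwards for Zfp277, Zfp326 and Zfp184, while Zfp33b is low in both mutant groups.

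Of the KRAB repressors and other genes listed for retroelements, imprints or pluripotency, 7 of 19 were named, 4 higher and 3 lower in Atr BaxBak mutants (median 0.22). Of all named genes 39.7% were higher and 58.5% lower past the threshold (median -0.34). Zfp809, which silences retroviruses in mouse embryonic cells by binding their primer site, had 9.22, 9.33 and 9.22 in Atr BaxBak mutants and 8.90, 8.87 and 9.02 in BaxBak controls. Both p53 groups were lower than all BaxBak samples, at 8.37, 8.49 and 8.42 in Atr p53 mutants and 8.50, 8.56 and 8.45 in p53 controls. The Atr difference was 0.33 ± 0.06 in the BaxBak comparison and -0.08 ± 0.07 in the p53 comparison. The naming used the BaxBak controls, so the gap of -0.43 between p53 controls and BaxBak controls is a description.

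Zfp568 represses a placental promoter of Igf2. Its single junction probe set had 4.60, 4.60 and 3.47 in Atr BaxBak mutants, a mean under that of the negative controls, against 5.55, 5.67 and 5.70 in BaxBak controls, which is at least 2.20-fold lower. It had 4.30, 4.43 and 4.35 in Atr p53 mutants and 4.93, 4.57 and 4.85 in p53 controls, groups that did not overlap, with a difference of -0.42 ± 0.10 that missed the threshold (adjusted p = 0.119, limma). The bounds make no allowance for the negative control signal, which was higher by 0.33 in Atr BaxBak mutants than in BaxBak controls.

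Zfp445, which maintains genomic imprints, differed by 0.27 ± 0.06 in the BaxBak comparison and 0.11 ± 0.07 in the p53 comparison. Its levels were 9.28, 9.14 and 9.27 in Atr BaxBak mutants, against 9.04, 8.94 and 8.89 in BaxBak controls. Zfp708, a binder of a retroelement in mouse embryonic stem cells, had 6.62, 6.60 and 6.10 in Atr BaxBak mutants and 7.25, 7.24 and 7.28 in BaxBak controls (-0.82 ± 0.13), and its p53 difference was 0.19 ± 0.13. Zfp961 differed by 1.01 ± 0.21 and -0.10 ± 0.12 at low signal, with 5.76, 5.51 and 5.01 in Atr BaxBak mutants and 4.50, 4.12 and 4.65 in BaxBak controls. With negative control signal as a covariate its BaxBak difference was 0.25 and no longer passed the threshold (adjusted p = 0.24, limma). Zfp819 differed by 0.22 and 0.03, and Zfp316 by -0.36 and 0.00. None of the 7 genes passed the p53 test.

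Most named transcripts of the proteins through which KRAB zinc fingers act stood lower in Atr BaxBak mutants. Of 24 listed genes of the Trim28 and Setdb1 machinery and its chromatin partners, 19 were named, 17 of them lower and 2 higher past the threshold, where the naming by the same contrast put 58.5% of all named genes lower and 39.7% higher. The median difference was -0.50 (all named genes -0.34). Trim28 itself averaged 10.09 ± 0.05 (SD, n = 3) in Atr BaxBak mutants and 10.51 ± 0.03 in BaxBak controls, a difference of -0.43. Setdb1 differed by -0.46, Dnmt1, the maintenance DNA methyltransferase, by -0.89, and its guide Uhrf1 by -1.01. Cbx1, which reads the repressive histone mark, differed by -0.93, while its relative Cbx5 differed by 0.56 and Atf7ip, a partner of Setdb1, by 0.32. Several of these genes, Dnmt1 and Uhrf1 among them, are also expressed with DNA replication. Most named precursor markers were lower in the same samples, and a link to these transcripts was not tested. Of the 19, 14 were below 0 in the p53 comparison with a median of -0.13, and none passed the test; Uhrf1 stood at -0.43, Dnmt1 at -0.37 and Trim28 at -0.20.

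Zfp410 (8 probe sets) is known in mammals chiefly as the activator of Chd4, the remodelling ATPase of the NuRD complex that Trim28 recruits. It was singled out after its values were seen. It had 8.26, 8.25 and 8.28 in Atr BaxBak mutants and 8.66, 8.67 and 8.74 in BaxBak controls, a difference of -0.42 ± 0.05, with all 8 probe sets between -0.53 and -0.32. Chd4 itself averaged 8.50 ± 0.09 in Atr BaxBak mutants and 9.39 ± 0.11 in BaxBak controls (SD, n = 3), a difference of -0.88. Between Atr p53 mutants and p53 controls Zfp410 differed by -0.04 and Chd4 by -0.34, and neither passed the test. Whether the differences of Chd4 are tied to those of Zfp410 was not tested.

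For neural and glial development, 6 of 18 listed genes were named, and 4 stood higher and 2 lower in Atr BaxBak mutants, with a median of 0.30. All named genes gave 39.7% higher and 58.5% lower past the threshold, with a median of -0.34. Listed genes that missed the BaxBak test are not counted. Zfp462, a chromatin regulator needed for brain development, had 10.58, 10.65 and 10.56 in Atr BaxBak mutants and 10.26, 10.21 and 10.19 in BaxBak controls (0.38 ± 0.05). Its 3 probe sets lay between 0.36 and 0.40, and its p53 difference was -0.02 ± 0.08. Zfp804a, whose human counterpart lies at a schizophrenia risk locus, differed by 0.41 in the BaxBak and -0.01 in the p53 comparison. Zfp609, which works with the cohesin loader Nipbl in cortical progenitors, differed by 0.21 and -0.09, and its relative Zfp608, a repressor of Rag genes in thymocytes, by 0.56 and -0.24. The junction of Zfp608 was under the negative controls in every group, and its exon probe set differed by 0.29 and 0.01. Zfp191, required for myelination in the mouse, stood at 7.67, 7.77 and 7.58 in Atr BaxBak mutants and 8.21, 8.28 and 8.25 in BaxBak controls (-0.58 ± 0.06), and differed by -0.16 in the p53 comparison. Zfp618, a reader of hydroxymethylated DNA, had 7.70, 7.70 and 7.65 in Atr BaxBak mutants, below all 9 other samples. BaxBak controls had 8.35, 8.43 and 8.06 and the p53 groups 8.27 to 8.38.

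Zfp36, or tristetraprolin, speeds the decay of AU-rich mRNAs and was the single named gene of the 4 in its family. It had 6.10, 6.02 and 6.21 in Atr BaxBak mutants and 5.68, 5.77 and 5.87 in BaxBak controls, and 6.19, 6.03 and 6.15 in Atr p53 mutants against 5.96, 5.81 and 5.83 in p53 controls. Mutants were above their controls without overlap in both comparisons. The differences were 0.34 ± 0.07 and 0.25 ± 0.08, the second short of the threshold (adjusted p = 0.167, limma).

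Among members with at least 3 probe sets, Zfp277 had the lowest BaxBak difference, and Zfp326 was close to it. Zfp277, a partner of the Polycomb protein Bmi1 in mouse fibroblasts, had 6.76, 6.83 and 6.62 in Atr BaxBak mutants and 7.37, 7.43 and 7.56 in BaxBak controls. In Atr p53 mutants it had 7.23, 7.27 and 7.20, against 7.42, 7.39 and 7.39 in p53 controls, again without overlap. The differences were -0.71 ± 0.08 on 7 probe sets, all below 0, and -0.17 ± 0.06 (adjusted p = 0.204, limma). Zfp326, part of a human complex that couples transcript elongation to splicing, had 8.35, 8.25 and 8.25 in Atr BaxBak mutants and 8.89, 8.95 and 9.02 in BaxBak controls. Its difference was -0.67 ± 0.06 on 8 probe sets, all below 0, and its p53 groups overlapped (-0.09 ± 0.09).

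Other genes with at least 3 named probe sets showed the same split. Zfp184 (5 probe sets) had 7.0, 7.0 and 6.94 in Atr BaxBak mutants and 7.57, 7.54 and 7.63 in BaxBak controls, and in the p53 comparison it differed by -0.22 ± 0.09. Zfp523 differed by -0.69 in the BaxBak comparison, with a junction at -1.46 and its other probe sets at -0.31 and -0.30. Zfp711, whose human counterpart recruits a histone demethylase and is mutated in intellectual disability, differed by -0.63, and Zfp772 by -0.60. Zfp276 (4 probe sets) went the other way, with 7.79, 7.66 and 7.69 in Atr BaxBak mutants and 7.19, 7.02 and 7.20 in BaxBak controls (0.58 ± 0.07), and its p53 difference was 0.07 ± 0.08. Zfp869 was the member nearest 0, at -0.05 ± 0.05.

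At the dim end, Zfp101, Zfp300, Zfp568 and Zfp595 had Atr BaxBak mutant means under the negative controls. Zfp101 had 3.28, 3.50 and 3.79 in Atr BaxBak mutants and 5.30, 4.90 and 4.80 in BaxBak controls, at least 1.48-fold lower. No fold is given for Zfp300, since its lower bound came out under 1.

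In the p53 comparison a single Zfp gene above background passed the test. The count is not set against that of the BaxBak comparison, which a probe set had to pass to be named. Of the 112 members 2 were called, both lower in Atr p53 mutants (Zfp33b and Zfp595), against 0.798% of all named genes called (0.519% higher and 0.279% lower). Zfp33b had 5.85, 5.69 and 5.87 in Atr p53 mutants and 6.39, 6.30 and 6.21 in p53 controls. The groups did not overlap, and the difference was -0.50 ± 0.08 (adjusted p = 0.0433, limma). Its BaxBak levels were 5.93, 5.89 and 5.77 in Atr BaxBak mutants and 6.24, 6.93 and 6.64 in BaxBak controls, so the 6 mutants of both kinds were below all 6 controls. The call rests on 1 measured junction and was lost on leaving out any 1 of the 6 samples, with adjusted p from 0.0562 to 0.168, and with the label prefix as a block (adjusted p = 0.301).

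Zfp595 passed with a difference of -1.21 ± 0.12 (adjusted p = 0.00911, limma) but its mean was below the negative controls in Atr p53 mutants and p53 controls alike. It had 2.65, 2.88 and 2.70 in Atr p53 mutants and 3.90, 3.77 and 4.18 in p53 controls, and is given no fold. Its BaxBak values were 3.26, 3.20 and 3.32 in Atr BaxBak mutants and 4.83, 4.25 and 4.62 in BaxBak controls, at least 1.10-fold lower. With the label prefix as a block its p53 call was lost too (adjusted p = 0.216). When all 719071 probe sets of the array were tested in the p53 comparison, no call was made (0%). Before adjustment, limma's p lay below 0.05 for 5.36% of the array and for 20 member probe sets out of 230. These figures are not set against each other, since every member probe set had passed the BaxBak test and most of the array had not. The share over all named probe sets is not given. In the authors' deposited table of the p53 comparison no member probe set had a step-up p under 0.05, the smallest being 0.452, and 46 had an unadjusted p under it.

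Below the threshold, more Zfp genes were lower than higher in Atr p53 mutants, by an amount that depended on the samples in the fit. The median difference was -0.08, against -0.03 over all named genes, and 77 members (68.8%) were below 0, against 58.7%. An unadjusted p under 0.05 was found for 27 members, 21 lower and 6 higher, where 12.6% and 7.19% of all named genes were lower and higher by that rule (19.8% in all). Without Atr p53 mutant 1 the share below 0 was 59.8% and the median -0.04, with 19 members under that p. With the label prefix as a block 8 members had such a p, and within the shared prefix 11. The groups did not overlap in 36 members, 27 lower and 9 higher, against 18% and 8.98% of all named genes (27% in all). Among the 8 lower members with the smallest p were Zfp444 (-0.35, adjusted p = 0.0767), Zfp952 (-0.33, adjusted p = 0.109), Zfp422 (-0.49, adjusted p = 0.122), Zfp383 (-0.40, adjusted p = 0.13) and Zfp811 (-0.52, adjusted p = 0.154), none of them past limma's threshold. Zfp422 had 8.28, 8.23 and 8.51 in Atr p53 mutants and 8.61, 8.90 and 8.99 in p53 controls, and 8.05 to 8.19 in Atr BaxBak mutants against 8.67 to 8.75 in BaxBak controls.

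On the higher side Zfp202, whose human counterpart represses lipid metabolism genes, had the smallest p (0.40, adjusted p = 0.125, limma). Zfp560 (0.34), Zfp36 (0.25), Zfp579 (0.46), Zfp65 (0.21), Zfp873 (0.26), Zfp280c (0.14) and Zfp398 (0.15) followed. Zfp579 had 7.10, 7.78 and 7.36 in Atr p53 mutants and 7.0, 7.06 and 6.80 in p53 controls, and 8.16, 7.91 and 7.94 in Atr BaxBak mutants against 7.35, 7.0 and 7.16 in BaxBak controls. It was thus above the controls of its own background in all 6 mutants, although its p53 value missed the threshold (adjusted p = 0.192, limma).

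The 2 comparisons share no samples. Of the 80 members lower in Atr BaxBak mutants, 62 were also below 0 in Atr p53 mutants, with a p53 median of -0.10. All 4687 named genes lower in the BaxBak comparison gave 3439 below 0 and a median of -0.09. Of the 32 higher members, 17 were above 0 in the p53 comparison, with a median of 0.01, and the 3212 higher named genes gave 2016 and 0.04. In 31 members the groups did not overlap in either comparison and differed the same way, 26 lower and 5 higher in the mutants, as did 22.5% of all named genes (15.7% lower and 6.75% higher). In 5 members they did not overlap and differed in opposite ways, as in 4.17% of all named genes. Higher in both comparisons were Zfp36, Zfp280c, Zfp398, Zfp445 and Zfp579. The p53 controls averaged lower than the BaxBak controls among the lower members, with a median gap of -0.15, and higher among the higher members, at 0.18; the naming used the BaxBak controls.

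**Figure D3:**
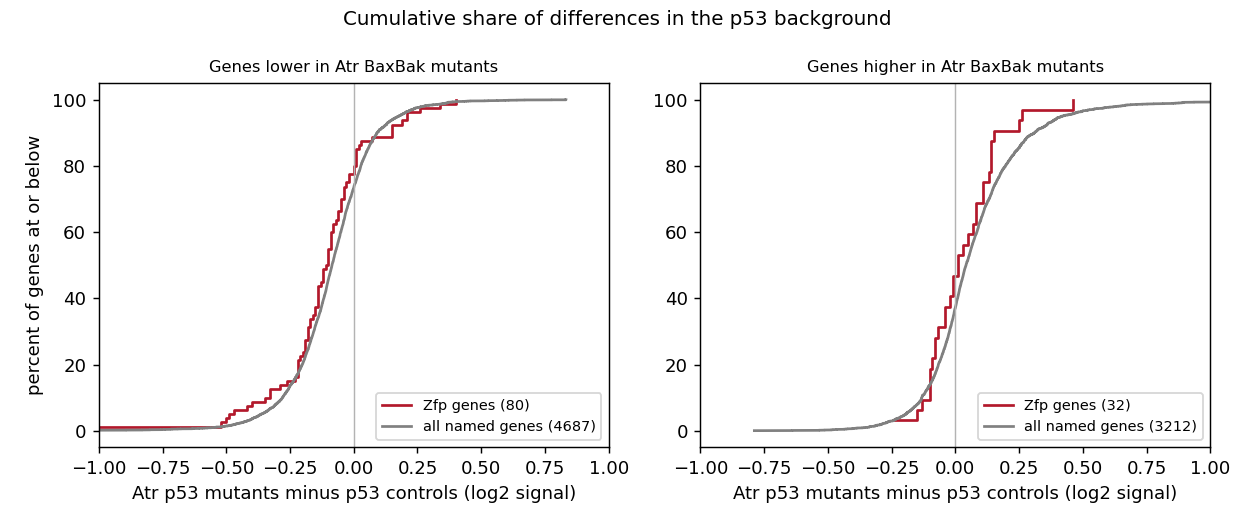
Cumulative percent of genes (vertical) at or below each Atr p53 mutant minus p53 control difference (horizontal, log2 signal, drawn from -1 to 1), for the 80 Zfp genes lower and the 32 higher in Atr BaxBak mutants, beside all 4687 and 3212 named genes of the same direction. The lower Zfp genes follow the grey line with medians of -0.10 and -0.09, and Zfp595 at -1.21 lies outside the drawn range.

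Named junction probe sets had a lower median BaxBak difference than named exon probe sets. Each had to pass the BaxBak test to be named, so this gap is a description. The part of the naming in it was not tested. The 153 exon probe sets of members had a median difference of -0.33 and 100 of them were below 0. The 77 junction probe sets, which count the shared junctions named above more than once, had a median of -0.64 with 62 below 0. All named genes showed this too. Averaged per gene, their BaxBak medians were -0.30 on exon and -0.48 on junction probe sets, beside -0.36 and -0.71 for members. In the p53 comparison the medians of the member probe sets were -0.07 on exons and -0.10 on junctions. Most members rest on little: 68 have a single named probe set and 25 have at least 3. These counts take only probe sets past the BaxBak test, and are not the coverage of a gene on the array. Members with at least 3 probe sets had a BaxBak median of -0.42 beside -0.41 for all named genes with as many, and members with 1 had -0.41 beside -0.28. Of the 44 members with at least 2 probe sets, all had the same sign in 38 in the BaxBak comparison and in 18 in the p53 comparison. These counts are not set against each other, since each probe set had to pass the BaxBak test to be named. No share over all named genes is given beside them.

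The 6 members with mixed BaxBak signs, of which Zfp111, Zfp248 and Zfp280d were picked out after their values were seen, included some with many named probe sets. In Zfp207, a junction was higher by 1.05 in Atr BaxBak mutants, with 9.08, 8.66 and 8.71 against 7.84, 7.47 and 7.98 in BaxBak controls, while the other 9 probe sets lay between -0.82 and -0.17. The same junction was higher in Atr p53 mutants by 0.49, with 8.56, 8.76 and 8.09 against 7.90, 7.94 and 8.09 in p53 controls, and did not pass the test (adjusted p = 0.859 over the array, limma). In Zfp111 a junction differed by 0.95 in the BaxBak comparison while its 4 exon probe sets lay between -1.0 and -0.58. In Zfp280d a junction differed by -2.66, under the negative controls in Atr BaxBak mutants at 2.88, 3.87 and 2.54, against 6.01, 6.27 and 4.99 in BaxBak controls, while its exon probe set differed by 0.46. Zfp248 had an exon probe set at 1.58 and a junction at -0.54. Zfp532 had 3 exon probe sets between 0.33 and 0.65 and 2 at -0.38 and -0.37, and Zfp869 had -0.22, -0.30 and 0.38.

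**Figure D4:**
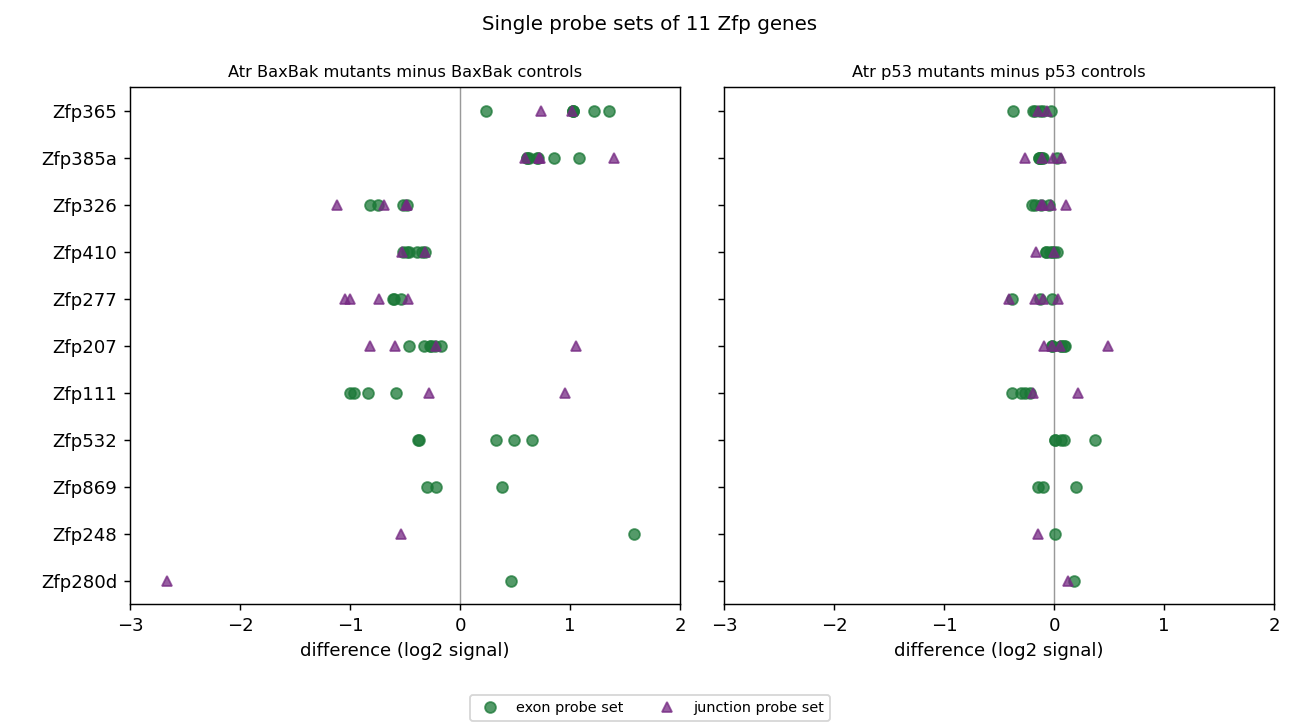
Difference of every probe set (horizontal, log2 signal) for 11 Zfp genes, exon probe sets as circles and junctions as triangles, with Atr BaxBak mutants minus BaxBak controls on the left and Atr p53 mutants minus p53 controls on the right. Zfp365, Zfp385a, Zfp326, Zfp410 and Zfp277 stay on one side of 0 on the left, and the lower 6 genes cross it.

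Zfp genes cluster in the genome. Counts by place are read beside the share of all members below 0, which was 71.4% in the BaxBak and 68.8% in the p53 comparison, and no difference between places was tested. Chromosome 7 held 28 of the members, 24 of them below 0 in the BaxBak and 23 in the p53 comparison, with medians of -0.48 and -0.13. Chromosome 17 held 12 members (9 below 0, median -0.71) and chromosome 13 held 6, all below 0 (median -0.71, p53 median -0.01). On chromosome 6 the 8 members were split evenly, 4 below and 4 above, and on chromosome 15, 3 of 4 were above 0. Members with at most 10 other RefSeq genes between them formed 16 groups of 46 genes in all, of which 11 had one direction in the BaxBak comparison, 10 of them all lower. Zfp84, Zfp383, Zfp568, Zfp382 and Zfp146 on chromosome 7 were all lower in both comparisons, from -1.42 to -0.37 in Atr BaxBak mutants and from -0.42 to -0.19 in Atr p53 mutants. Zfp811, Zfp472 and Zfp952 on chromosome 17 were likewise below 0 in both, with medians of -0.77 and -0.33. On chromosome 5, Zfp157 and Zfp68 were both higher in Atr BaxBak mutants, by 0.76 and 0.91. Another group of 7 on chromosome 7 held Zfp61, at 1.27, beside 6 members below 0, among them Zfp94 at -1.09; 3 of the 7 share the junction named above. The neighbour groups were looked up after values were seen.

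Promoter windows of 250 bases before to 50 bases after the start were found in RefSeq (GRCm38.p6) for 96 of the members, among 27025 genes. Motifs were searched as exact letters on both strands. CCAAT was present in 42.7% of member windows and 37.9% of all, GGGCGG (the Sp1 box) in 44.8% and 35.9%, CCGGAAG (an ETS site) in 18.8% and 9.12%, TTCCCGC (an E2F half-site) in 12.5% and 4.66%, and AAGATGGC (a YY1 site) in 7.29% and 2.88%. TATAAA was present in 6.25% of member windows and 14.2% of all. The median number of CG pairs was 16 in member windows and 7 in all, and the median GC content 55.7% and 52.7%. Among members, CCGGAAG was in 19.4% of the 72 windows of lower genes and 16.7% of the 24 of higher genes, and TTCCCGC in 13.9% and 8.33%. A match is a stretch of letters and not a bound site.

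Windows were chosen by the number of named probe sets, which counts only those past the BaxBak test and is not array coverage. The windows of members with at least 7 are shown, apart from Zfp410. They are written from 5′ to 3′ on the gene's strand, in lower case, with the 6 motifs or their reverse complements in capitals, where TTCCCGC can overlap CCGCCC, the reverse of GGGCGG. Zfp365 and Zfp385a were higher and Zfp277, Zfp326 and Zfp207 lower in Atr BaxBak mutants.
Zfp365, chr10:67912613-67912912, minus strand: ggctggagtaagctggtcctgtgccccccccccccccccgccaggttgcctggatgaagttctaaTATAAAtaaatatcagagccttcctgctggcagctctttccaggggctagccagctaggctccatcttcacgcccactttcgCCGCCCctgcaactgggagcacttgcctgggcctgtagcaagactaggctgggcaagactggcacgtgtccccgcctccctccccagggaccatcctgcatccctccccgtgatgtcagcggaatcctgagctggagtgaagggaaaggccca
Zfp385a, chr15:103340037-103340336, minus strand: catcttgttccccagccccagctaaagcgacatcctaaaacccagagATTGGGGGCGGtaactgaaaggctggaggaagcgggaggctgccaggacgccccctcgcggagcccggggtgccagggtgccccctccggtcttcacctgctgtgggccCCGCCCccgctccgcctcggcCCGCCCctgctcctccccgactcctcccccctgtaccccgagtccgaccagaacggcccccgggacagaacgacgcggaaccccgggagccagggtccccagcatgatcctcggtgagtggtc
Zfp277, chr12:40445741-40446040, minus strand: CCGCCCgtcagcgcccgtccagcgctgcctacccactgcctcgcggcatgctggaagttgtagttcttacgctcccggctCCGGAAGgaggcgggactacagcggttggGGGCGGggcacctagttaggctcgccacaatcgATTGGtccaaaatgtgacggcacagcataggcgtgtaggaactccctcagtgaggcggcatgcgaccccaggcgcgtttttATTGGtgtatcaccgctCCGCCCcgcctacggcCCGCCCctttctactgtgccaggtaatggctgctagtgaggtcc
Zfp326, chr5:105876318-105876617, plus strand: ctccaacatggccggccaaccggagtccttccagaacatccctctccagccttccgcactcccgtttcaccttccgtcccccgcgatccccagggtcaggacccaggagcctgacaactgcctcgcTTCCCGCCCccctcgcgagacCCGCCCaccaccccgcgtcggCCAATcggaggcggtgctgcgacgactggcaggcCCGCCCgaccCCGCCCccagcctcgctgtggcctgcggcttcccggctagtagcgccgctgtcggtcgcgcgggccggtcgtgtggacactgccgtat
Zfp207, chr11:80383029-80383328, plus strand: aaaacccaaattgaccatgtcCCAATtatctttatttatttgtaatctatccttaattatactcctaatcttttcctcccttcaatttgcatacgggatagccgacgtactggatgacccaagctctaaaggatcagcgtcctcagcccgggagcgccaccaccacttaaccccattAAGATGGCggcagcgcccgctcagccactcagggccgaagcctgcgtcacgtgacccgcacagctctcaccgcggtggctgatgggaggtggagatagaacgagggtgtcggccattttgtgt
Zfp365 was the only one of the 5 with TATAAA and had 8 CG pairs, while the other four had 17 to 34. Zfp207 holds the single AAGATGGC, Zfp277 the single CCGGAAG and Zfp326 the single TTCCCGC. In both Zfp277 and Zfp326 there were 4 matches to GGGCGG, and Zfp385a had 3.

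Other zinc finger families on the array are given for scale, without a test of any difference from the Zfp genes. The 14 Zbtb genes had BaxBak and p53 medians of -0.29 and -0.07, and the 12 Zc3h and Zcchc genes -0.39 and -0.06. The 10 Zkscan and Zscan genes, which include the early embryonic Zscan4 cluster, had medians of 2.37 and -0.06. No gene of the 3 families passed the test in the p53 comparison.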

How the data were processed

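RNA of 12 cerebella was hybridised to Affymetrix exon and junction arrays; per the labels' protocols, 500 ng of total RNA was used, and a label calls the samples poly-A selected. The authors' deposited values are log2 signals per probe set. Per the submitters' processing notes Partek was used, with no stated role or version. Background correction, normalization and annotation build: not given in the sources used here. The authors' deposited tables also give folds and p-values for the 34305 probe sets with a step-up p under 0.05 in the BaxBak comparison. Symbols came from these tables, whose annotation text is cut at 87 characters, so a second symbol can be hidden. Probe sets with several symbols (733) were left out, and 50 symbols turned into dates were restored. The authors' folds matched the log2 group differences of the deposited values within 5.2e-05 for member probe sets. Array medians were 6.46 to 6.49, and no further normalization was applied.

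Named probe sets were averaged per gene. limma 3.58.1 (R 4.3.3) compared mutants with controls within each background, on 6 samples each, two-sided, with Benjamini-Hochberg adjustment over 7899 genes and a threshold of 0.05. The procedure was tested on simulated data. Errors after ± are limma's standard errors unless marked SD. Where 1 group's mean lay under that of the 5222 negative control probe sets, a fold is a lower bound, taken against the negative control mean of each array or the gene's own level, whichever was higher; with both groups under it, none is given. An exact permutation test of 3 against 3 cannot go below 0.1 and was not used.

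The members and lists were chosen with earlier results of these data known. Genes were named by rule: called in the p53 comparison or, with fewer than 5 calls, the 8 smallest p per direction; the 8 highest and 8 lowest BaxBak differences among members with at least 3 probe sets; members of the role lists; and the 3 brightest and 3 dimmest. Other members named were chosen after their values were seen. Alternatives were another gene summary, filter, normalization, probe set kind, covariate, label prefix and sample set.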

Additional observations from a re-analysis of the deposited data

Results flagged for a closer look

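In 5 members the groups did not overlap in either background and differed in opposite directions, as did 4.17% of all named genes; the difference between backgrounds was not tested, since the naming used the BaxBak samples. Zfp202 differed by 0.40 in the p53 comparison, with 5.74, 5.97 and 6.00 in Atr p53 mutants and 5.65, 5.39 and 5.46 in p53 controls, and by -0.64 in the BaxBak comparison. Zfp560 differed by 0.34, with 7.33, 7.59 and 7.44 in Atr p53 mutants and 7.17, 7.04 and 7.14 in p53 controls, and by -0.64 in the BaxBak comparison. Zfp65 differed by 0.21 and -0.37 in the same order. Each of these 3 rests on 1 junction probe set. Zfp207 differed by 0.07 in the p53 and -0.23 in the BaxBak comparison on 10 probe sets. A single junction among them was higher in both, by 0.49 and 1.05, while the others lay between -0.09 and 0.10 in the p53 comparison. Zfp608 differed by -0.24 in the p53 and 0.56 in the BaxBak comparison. Its junction averaged 3.15 in Atr p53 mutants and 3.64 in p53 controls, and 3.50 in Atr BaxBak mutants and 2.67 in BaxBak controls. All these means were under the negative controls. Its exon probe set differed by 0.01 in the p53 and 0.29 in the BaxBak comparison. For 31 members the groups did not overlap and differed the same way in both backgrounds, as did 22.5% of all named genes.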

How the results depend on the processing

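Of the 2 members called in the p53 comparison, 1 remained on the median of probe sets, the brightest probe set or junctions only (Zfp595 in each) and above the negative controls (Zfp33b), and 0 on exon probe sets, with the label prefix as a fixed block or within the shared prefix, where the lone p53 control is assumed to vary like the mutants. With 12 samples in the fit 3 were called (Zfp422, Zfp560 and Zfp595), of 193 named genes against 63 in the fit of 6 samples; with the prefix block, 1 named gene was called. Leaving out each sample gave 1 call in every case (Zfp595), with 10 to 82 named genes called. Its p53 value ranged from -1.30 to -1.10 (adjusted p from 0.00184 to 0.216), and that of Zfp33b from -0.59 to -0.44 (adjusted p from 0.0305 to 0.479). The p53 median of members stayed between -0.09 and -0.04. No member probe set was called over the array under any alternative run; with 12 samples 32 of all probe sets were. In the BaxBak comparison the count past the threshold was 111, 51 on junction probe sets, which 52 members have, 88 with negative control signal as a covariate, and 110 to 111 leaving out 1 sample. The median of -0.43 was -0.39 on the brightest probe set, -0.36 on exons, -0.71 on junctions, -0.40 after quantile normalization and -0.46 to -0.43 leaving out 1 sample. Signs turned for Zfp111 (0.95 on the brightest probe set, 0.34 on junctions), Zfp248 (-0.54 on its junction), Zfp280d (0.46 on its exon, also its brightest) and Zfp532 (-0.38 on the brightest), whose probe sets differ in sign. Over single members and settings, 1668 of 1704 BaxBak values kept direction and side of the threshold, 28 lost the call, 2 gained it and 6 turned sign. Of 1816 p53 values 1662 kept both, 14 lost the call, 2 gained it and 138, none of them called, turned sign. No paired analysis was possible because replicate numbers follow accession order and pair no samples. The causes were not tested.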
